A study of Homo sapiens with 20 samples.

Results

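The genes described here encode ligands, receptors, modifiers, intracellular transducers and well-known transcriptional targets of the Wnt, BMP and TGF-beta, FGF and Notch pathways. They were chosen by the letters of their symbols (WNT, FZD, SFRP, DKK, BMP, TGFB, SMAD, FGF, FGFR, NOTCH, JAG, DLL, HES or HEY followed by a number) with a few named additions such as LFNG, RFNG, ID1, AXIN2 and LEF1. Of 70 genes that matched, 49 had a probe detected (detection p under 0.01) on 3 or more of 20 arrays, as did 10673 genes in all, and 1 probe stood for each gene. Of the 49, 44 belong to the pathways and 5 match by letters alone (BMP2K, FGFR1OP2, FZD4-DT, NOTCH2NLA and TGFB1I1). The 21 matching genes under the filter were detected on at most 2 arrays. They were the ligands BMP2, BMP3, FGF1, FGF5, FGF17, FGF19, WNT3, WNT5B, WNT8A and BMP8B, the intracellular FGF relative FGF11, and the receptors FZD8, FZD10, NOTCH4 and TGFBR1. The rest were the antagonists DKK1 and DKK3, the transducer SMAD1, the repressor HES7, and the pseudogenes FGF7P3 and FGF7P6. The rule could reach only genes with a named probe, and 16545 of 47323 probes had 1 gene name. MFNG, TCF7 and NKD1, and others such as FGFR1, FGFR2, TGFB1, BMP4 and WNT5A, had no such probe and were not analysed here.

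All 4 pathways carry signals between neighbouring cells. In the Notch pathway a ligand of the Jagged or Delta family on one cell cuts loose the intracellular part of a NOTCH receptor on the next, which joins the DNA-binding protein RBPJ and switches on repressors of the HES and HEY families; fringe enzymes such as LFNG add sugars to the receptor and change which ligand it answers. Wnt ligands bind frizzled receptors and can be caught outside the cell by SFRP proteins, FGF ligands bind receptor tyrosine kinases, and BMP and TGF-beta ligands bind paired receptor kinases that act through SMAD proteins. Melanocytes arise from the neural crest, where Wnt, BMP, FGF and Notch signals guide their development, and Notch signalling with HES1 is known to maintain the melanocyte lineage in mice.

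Expression was measured in Mel202, a cell line from a recurrent, irradiated human uveal melanoma that carries GNAQ mutations and is wild type for BRAF, so all groups share 1 cell line and 1 genotype. Cells received 100 nM all-trans retinoic acid (ATRA), 100 nM 9-cis retinoic acid (9-cis RA) or the ethanol vehicle (EtOH) for 24 or 48 h. ATRA is a ligand of the retinoic acid receptors. Its geometric isomer 9-cis RA binds them as well, and also the retinoid X receptors. After arrays with the same sample number were averaged, each time had 3 ATRA, 2 9-cis RA and 2 EtOH samples, and the values below follow the order of replicates 1-2, 3 and 4 for ATRA and of replicates 1 and 2-3 for 9-cis RA and EtOH, where 1-2 and 2-3 stand for means of paired arrays. The labels do not say that samples came from separate cultures, so a p-value here covers just the variation among these samples, and that variation may be technical.

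Levels are normalized log2 intensities, differences are retinoid minus EtOH on the log2 scale with their standard error (SE), and adjusted p-values come from limma with Benjamini-Hochberg adjustment over all 10673 genes. Passing means an adjusted p under 0.05. A dim probe reads close to background on this platform, and precision is limited by how many arrays there were. The arrays fell into 2 sets by the number of detected probes, with 15870 to 17128 in set 1 (12 arrays) and 12561 to 14301 in set 2 (8 arrays). Set 2 held a single EtOH and a single 9-cis RA array at each time, and ATRA replicate 4 was measured there alone. On the second principal component ATRA replicate 4 at 24 h, both 9-cis RA samples at 24 h and ATRA replicate 4 at 48 h stood apart from the other 10 samples. Of 10 melanocytic markers 8 were tested, and all 8 lay at mean log2 levels of 9.58 or more in every group. Few markers of other cells had a named probe here: 3 of 6 fibroblast, 2 of 5 leukocyte, 1 of 5 epithelial and 1 of 5 endothelial genes. Of these LUM and DCN (fibroblast), CD68 (leukocyte) and CDH1 (epithelial) passed the filter, and 0 endothelial genes did. CDH1 passed in no comparison of a retinoid with EtOH. In EtOH culture it passed as higher at 48 than at 24 h (1.28), with linear levels of 311.6 to 373.9 against 126.9 to 156. The summed linear level of LUM and DCN was 892.1 to 1083 with ATRA and 853.2 to 934.1 with 9-cis RA at 24 h, against 580.3 to 651.9 with EtOH, and 1623 to 1904 and 1873 to 2101 at 48 h, against 543.2 to 885.1. CD68 passed as higher in all 4 comparisons, with linear levels of 2235 to 2516 with ATRA and 2305 to 2473 with 9-cis RA at 24 h, against 1303 to 1357 with EtOH, and of 2343 to 2786 and 3263 to 3457 at 48 h, against 1138 to 1449. Of LUM and DCN, 1 passed as higher with ATRA at 24 h, 0 with 9-cis RA at 24 h and 2 with either isomer at 48 h. At 24 h the dimmer of the 2 had group mean log2 levels of 4.58 to 5.02 and the brighter of 9.21 to 9.94. Their 24 h sums thus rest almost wholly on 1 gene. The part of these marker genes in the results below was not tested. In bulk RNA fewer cells that express a gene and less of its RNA per cell cannot be told apart.

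Retinoids changed a minority of the pathway genes, and the same 4 genes passed in all 4 comparisons with EtOH: HEY2 rose, and LFNG, FGF9 and WNT10B fell. FGF9 was detected on 8 of 20 arrays and met the detection filter only through the EtOH arrays, where it was high. Its place among the 49 genes, and in the counts below, was thus not independent of its fall. With ATRA at 24 h 5 of 49 genes passed (10.2%), against 5.75% of all genes tested. Of these 2 were higher (3.29% of all genes) and 3 lower (2.46%). At 48 h ATRA changed 12 of the 49 (24.5%, against 17.4% of all genes), 5 higher (all genes 8.61%) and 7 lower (all genes 8.78%). With 9-cis RA at 24 h 7 passed (14.3%, against 14.5%), 3 higher (all genes 8.70%) and 4 lower (all genes 5.78%). At 48 h 10 passed with 9-cis RA (20.4%, against 11.0%), 3 higher (all genes 5.53%) and 7 lower (all genes 5.49%). The share of pathway genes that passed with 9-cis RA at 24 h lay at the level of all genes. The median difference of the 49 genes was 0.02, 0.10, 0.09 and 0.10 for ATRA at 24 and 48 h and 9-cis RA at 24 and 48 h, beside -0.02, -0.00, 0.01 and -0.01 over all genes.

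In all, 15 of the 49 genes passed in at least 1 of these comparisons (30.6%) and 34 in none. Of all genes tested 26.0% passed in at least 1, so the share of the pathway genes lay near that of all genes. Every comparison of a retinoid at one time shares its EtOH samples with the other retinoid. With array set as a term in the model, 5, 13, 13 and 9 of the 49 passed in ATRA at 24 and 48 h and 9-cis RA at 24 and 48 h, beside 7.91%, 20.0%, 20.4% and 13.8% of all genes. Within set 1 alone 4, 11, 13 and 12 passed, beside 4.47%, 14.2%, 20.9% and 13.4% of all genes. Within set 2 alone, where EtOH is 1 array, 3, 4, 2 and 3 passed, beside 0.815%, 0.946%, 0.459% and 0.684%. When only the groups compared entered the fit, HES1 with ATRA at 24 h no longer passed (adjusted p = 0.0727). At 48 h the same fit lost FZD4, HES4, HEY1, JAG2, SMAD4 and TGFBR2 with ATRA (adjusted p of 0.0712 to 0.221) and FGFR3, FGFR4, HES1, HEY1, JAG2 and SFRP1 with 9-cis RA (adjusted p of 0.0579 to 0.135). Without ATRA replicate 4 at 24 h the count for ATRA at 48 h was 16, and without ATRA replicate 3 at 48 h it was 8. The share of all genes in those fits is not given here, so the counts show only how far the number of calls moves.

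Within the Notch pathway, 6 of 13 measured genes passed in at least 1 comparison, against 26.0% of all genes: the ligand JAG2, the fringe enzyme LFNG and the targets HES1, HES4, HEY1 and HEY2. Among the targets HEY2 rose in all 4 comparisons, HES1 in 3 and HES4 in 1, and HEY1 was lower than in EtOH at 48 h. The count was 2 higher and 1 lower for each retinoid at 24 h, and 2 higher and 3 lower for each at 48 h.

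HEY2 encodes a repressor known in the development of heart and vessels as a direct Notch target. At 24 h it read 9.20, 9.34 and 9.23 with ATRA and 9.60 and 9.18 with 9-cis RA, against 7.93 and 7.80 with EtOH. By 48 h it read 9.38, 9.73 and 9.55 with ATRA and 10.00 and 9.88 with 9-cis RA, against 7.57 and 7.30 with EtOH. Every retinoid sample lay more than 1 log2 unit above every EtOH sample of its time. The difference was 1.39 ± 0.16 (SE) for ATRA at 24 h (adjusted p = 0.000132) and 2.12 ± 0.16 at 48 h (adjusted p = 2.28e-06), a 4.33-fold higher level at 48 h. For 9-cis RA it was 1.52 ± 0.18 at 24 h (adjusted p = 0.00013) and 2.50 ± 0.18 at 48 h (adjusted p = 1.17e-06), or 5.67-fold higher at 48 h. HEY2 was detected on all 20 arrays, with unnormalized intensities of 643.5 to 1326 on retinoid arrays and 252.5 to 351 on EtOH arrays. Within array set 1 the HEY2 differences were 1.43 and 2.11 for ATRA at 24 and 48 h and 1.55 and 2.45 for 9-cis RA, and within set 2 they were 1.36 (adjusted p = 0.0602), 2.23, 1.33 (adjusted p = 0.114) and 2.68. From the authors' deposited normalized values the HEY2 differences were 0.94, 1.40, 1.05 and 1.72 in the same order, all still passing.

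HES1, a repressor of differentiation genes that answers to Notch in many tissues, rose at 24 h with both isomers. Its 24 h levels were 7.20, 6.77 and 6.89 with ATRA and 7.28 and 7.20 with 9-cis RA, against 6.41 and 5.85 with EtOH. The groups did not overlap, and EtOH replicate 2-3 was the lowest sample. That sample is the mean of 2 arrays, which read 6.58 and, where HES1 was not detected, 5.12. ATRA gave 0.83 ± 0.18 (adjusted p = 0.0137) and 9-cis RA 1.11 ± 0.19 (adjusted p = 0.00289). At 48 h HES1 read 7.17, 7.09 and 6.98 with ATRA and 7.60 and 7.67 with 9-cis RA, against 6.73 and 6.54 with EtOH. All retinoid samples were again the higher ones. The 9-cis RA difference of 1.00 ± 0.19 passed (adjusted p = 0.00491), and the ATRA difference of 0.45 ± 0.18 did not (adjusted p = 0.0991). Without EtOH replicate 2-3 at 24 h the HES1 differences at 24 h were 0.55 for ATRA (adjusted p = 0.258) and 0.83 for 9-cis RA (adjusted p = 0.0528), and without ATRA replicate 1-2 the ATRA value was 0.70 (adjusted p = 0.0596). With array set as a term the HES1 differences of 0.95 for ATRA at 24 h (adjusted p = 0.0856) and 1.01 for 9-cis RA at 48 h (adjusted p = 0.069) did not pass, nor did 0.62 for ATRA at 24 h within set 1 (adjusted p = 0.109). Within set 2 at 24 h HES1 was undetected on the only EtOH array. From the authors' deposited normalized values the HES1 differences that passed above were 0.27, 0.38 and 0.43 for ATRA at 24 h and 9-cis RA at 24 and 48 h, all still passing.

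HES4, a related repressor, stood at 11.48, 11.49 and 11.44 with ATRA and 11.30 and 11.30 with 9-cis RA at 48 h, against 11.00 and 11.04 with EtOH. Both retinoids lay above EtOH with tight replicates. The ATRA difference of 0.45 ± 0.13 passed (adjusted p = 0.0281), and that of 9-cis RA, 0.28, did not (adjusted p = 0.234). At 24 h HES4 read 11.02, 11.11 and 11.27 with ATRA and 11.12 and 11.09 with 9-cis RA, against 10.73 and 10.95 with EtOH, and neither difference passed. The ATRA call at 48 h was lost without EtOH replicate 1 at 48 h (adjusted p = 0.108) and without ATRA replicate 1-2, 3 or 4 at 48 h (0.0585, 0.0626 and 0.0517), and equal array medians in place of quantile normalization gave a HES4 difference of 0.20 (adjusted p = 0.452).

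HEY1, the close relative of HEY2, was lower with both retinoids than with EtOH at 48 h. Its group mean was 7.97 with ATRA at both times, and 8.02 and 7.80 with 9-cis RA at 24 and 48 h. The EtOH mean was 8.26 at 24 h and 8.74 at 48 h, so much of the wider gap at 48 h lay in EtOH. At 48 h the HEY1 levels were 7.89, 8.23 and 7.79 with ATRA and 7.92 and 7.69 with 9-cis RA, against 8.65 and 8.83 with EtOH. No retinoid sample reached the EtOH range at 48 h. The differences were -0.77 ± 0.16 for ATRA (adjusted p = 0.00553) and -0.94 ± 0.17 for 9-cis RA (adjusted p = 0.00374). At 24 h HEY1 read 7.82, 8.02 and 8.08 with ATRA and 7.96 and 8.09 with 9-cis RA, against 8.32 and 8.21 with EtOH, and the differences of -0.29 and -0.24 did not pass. A dimmer second HEY1 probe, detected on 7 of 20 arrays, gave -0.31 and -0.09 at 48 h (adjusted p = 0.379 and 0.862). Fitted on the mean of both probes, the HEY1 difference at 48 h was -0.54 for ATRA (adjusted p = 0.034) and -0.51 for 9-cis RA (adjusted p = 0.0812). The first HEY1 probe gave 48 h differences of -0.49 for ATRA and -0.59 for 9-cis RA from the authors' deposited normalized values, both still passing.

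The promoters of HES1, HES4 and HEY2, the targets that were higher with a retinoid, are shown because each holds the heptamer GTGGGAA, the core of the site that RBPJ is known to bind. The promoters of HEY1, FGF9, SFRP1, WNT10B and BMP1 were not searched. Each run covers 250 bases before to 50 bases after the annotated RefSeq start in GRCh38.p14, read 5′ to 3′ on the strand of the gene, with matches to GTGGGAA or its reverse complement in capitals. HES1 lies on chromosome 3 at chr3:194135898-194136197 (plus strand), HES4 on chromosome 1 at chr1:1000048-1000347 (minus strand) and HEY2 on chromosome 6 at chr6:125749382-125749681 (plus strand).
HES1: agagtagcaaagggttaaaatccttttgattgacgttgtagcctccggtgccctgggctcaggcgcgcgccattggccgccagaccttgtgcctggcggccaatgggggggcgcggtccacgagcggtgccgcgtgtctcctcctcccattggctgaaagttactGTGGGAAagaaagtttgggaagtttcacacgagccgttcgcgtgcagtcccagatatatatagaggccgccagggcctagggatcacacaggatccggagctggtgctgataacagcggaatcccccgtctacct
HES4: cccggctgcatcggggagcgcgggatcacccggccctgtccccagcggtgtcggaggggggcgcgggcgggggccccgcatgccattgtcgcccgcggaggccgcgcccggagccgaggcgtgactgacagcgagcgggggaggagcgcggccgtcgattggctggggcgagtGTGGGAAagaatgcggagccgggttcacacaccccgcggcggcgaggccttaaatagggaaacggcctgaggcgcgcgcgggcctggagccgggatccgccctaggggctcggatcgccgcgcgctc
HEY2: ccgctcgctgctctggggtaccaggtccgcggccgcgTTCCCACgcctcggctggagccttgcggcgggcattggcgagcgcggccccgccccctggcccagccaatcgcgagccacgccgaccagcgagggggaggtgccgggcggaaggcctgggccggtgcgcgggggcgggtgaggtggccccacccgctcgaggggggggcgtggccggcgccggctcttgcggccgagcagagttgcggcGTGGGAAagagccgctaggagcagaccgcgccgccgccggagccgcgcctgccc
The match lies at bases -85 to -79 in HES1 and at -77 to -71 in HES4, counted from the start. HEY2 has 2 matches, at -213 to -207 on the opposite strand and at -4 to 3 over the start itself.

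On both strands GTGGGAA was found in 6.25% of 35116 promoter windows of this length. Among 51 windows of 37 of the 49 genes it was found in 6, those of HES1, HES4, HEY2, FGFR4, SMAD3 and TGFB3. Neither annotated start of LFNG had it. The motif was also absent from the windows of HES6, a target that did not pass, and of JAG2, which fell. FGFR4, which has it, fell. The windows shown were picked with the calls and the matches known, so they are no test of a link between motif and direction of change. Such a link was not tested. The half-site AGGTCA, a sequence that retinoic acid receptors and other nuclear receptors bind in pairs, was found in 13.8% of all windows and in 4 of the 51, those of FGF23, ID3, SMAD3 and SMAD7. The E-box CACGTG was found in 7.26% of all windows and in 4 of the 51, those of FGFR4, SMAD3, SMAD9 and TGFB3. No 2 matches of these motifs overlapped in the promoters printed above. A match describes the letters in this window and is not a measured binding site.

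**Figure D1:**
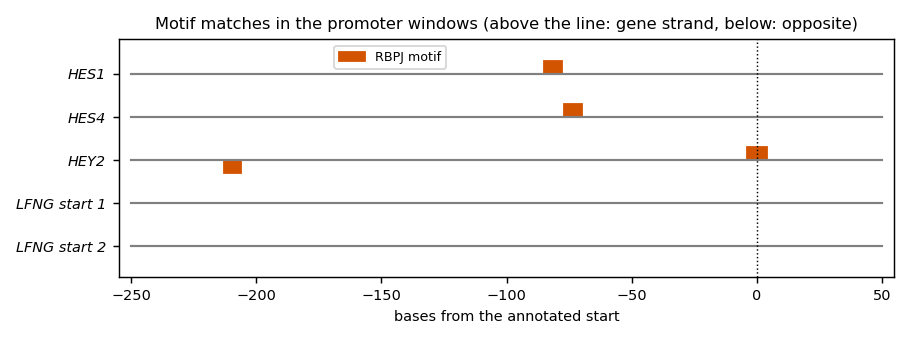
Map of the motif GTGGGAA in the promoter windows of HES1, HES4, HEY2 and both annotated starts of LFNG, in bases from the annotated start (horizontal axis, dotted line at the start). Boxes above a line are matches on the strand of the gene and boxes below are on the opposite strand; HES1 and HES4 have a match between -85 and -71, HEY2 has 2 matches and LFNG has none in these windows. The windows were picked with the calls and matches known, and other searched genes, such as HES6, JAG2 and FGFR4, are not drawn.

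LFNG, lunatic fringe, adds N-acetylglucosamine to NOTCH receptors and is known for its part in the segmentation clock of vertebrate embryos. It read 5.50, 6.08 and 5.59 with ATRA and 5.54 and 5.45 with 9-cis RA at 24 h, against 7.04 and 7.08 with EtOH. At 48 h the levels were 5.44, 5.28 and 5.24 with ATRA and 5.84 and 5.34 with 9-cis RA, against 7.69 and 7.19 with EtOH. All 10 retinoid samples were lower than all 4 EtOH samples. The LFNG differences were -1.33 ± 0.20 for ATRA at 24 h (adjusted p = 0.00144) and -2.12 ± 0.20 at 48 h (adjusted p = 1.9e-05). For 9-cis RA they were -1.56 ± 0.22 at 24 h (adjusted p = 0.000712) and -1.84 ± 0.22 at 48 h (adjusted p = 0.000156). The LFNG probe was detected on 2 of 4 ATRA and 2 of 3 9-cis RA arrays at 24 h, on 1 of 4 and 1 of 3 at 48 h, and on 3 of 3 EtOH arrays at each time, so its retinoid levels sit at the edge of detection. Within array set 1 the LFNG differences were -1.29, -2.09, -1.38 and -1.83 for ATRA at 24 and 48 h and 9-cis RA at 24 and 48 h, and within set 2 LFNG was detected on no retinoid array. Without background correction the differences were -0.59, -0.96, -0.67 and -0.87 for ATRA at 24 and 48 h and 9-cis RA at 24 and 48 h, and from the authors' deposited normalized values they were -0.42, -0.69, -0.47 and -0.63, all still passing.

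JAG2, a Notch ligand of the Jagged family, fell at 48 h. It read 7.24, 7.64 and 7.42 with ATRA and 7.39 and 7.03 with 9-cis RA, against 7.99 and 8.32 with EtOH. No retinoid sample reached the EtOH pair at 48 h. The differences were -0.72 ± 0.17 for ATRA (adjusted p = 0.0133) and -0.94 ± 0.19 for 9-cis RA (adjusted p = 0.00644). At 24 h JAG2 read 7.56, 7.86 and 7.93 with ATRA and 8.12 and 8.00 with 9-cis RA, against 8.38 and 8.32 with EtOH, and the differences of -0.56 (adjusted p = 0.0809) and -0.29 (adjusted p = 0.308) did not pass. A second JAG2 probe, detected on all arrays, gave -0.73, -0.87, -1.14 and -0.75 for ATRA at 24 and 48 h and 9-cis RA at 24 and 48 h (adjusted p = 0.0168, 0.00281, 0.00117 and 0.015). With the first probe, the ATRA call was lost without EtOH replicate 2-3 at 48 h (-0.56, adjusted p = 0.0601) and the 9-cis RA call without 9-cis RA replicate 2-3 at 48 h (-0.76, adjusted p = 0.0799). The first JAG2 probe gave 48 h differences of -0.40 for ATRA and -0.50 for 9-cis RA from the authors' deposited normalized values, both still passing.

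The other 7 Notch genes did not pass in any comparison with EtOH. Over the 14 samples the receptor NOTCH1 ranged from 6.94 to 7.59 with a median of 7.18, NOTCH2 from 5.45 to 6.66 with a median of 5.77, and NOTCH3 from 8.02 to 8.68 with a median of 8.42. NOTCH3 differences lay between -0.43 and -0.12 (lowest adjusted p = 0.135). JAG1, the other Jagged ligand, was detected on 4 of 20 arrays and on no EtOH array, and did not pass (lowest adjusted p = 0.0633). DLL3, a Delta-type ligand that acts inside the cell as an inhibitor of Notch, had differences of 0.05 to 0.39 (lowest adjusted p = 0.18), and a second DLL3 probe ran the other way in all 4. HES6, which counteracts HES1, ranged from 10.72 to 11.28, and RFNG, the radical fringe enzyme, from 5.80 to 6.93.

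**Figure D2:**
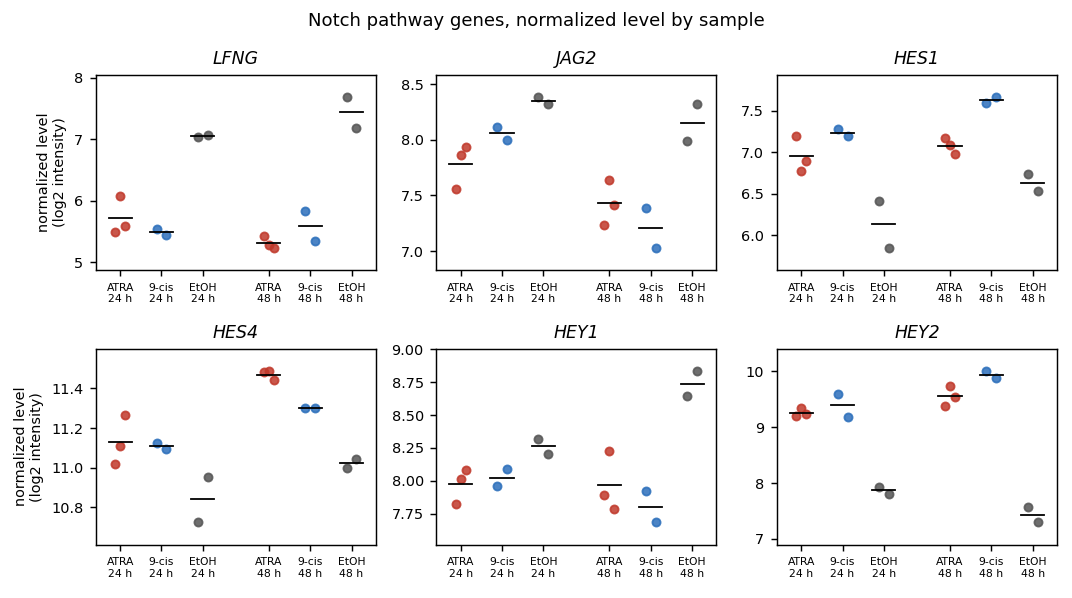
Normalized log2 intensity (vertical axes) of the 6 Notch pathway genes that passed, in each sample of the ATRA, 9-cis RA and EtOH groups at 24 and 48 h; points are samples and lines are group means. HEY2 separates retinoid from EtOH samples upward and LFNG downward at both times, while HEY1 and JAG2 fall below the EtOH samples most clearly at 48 h.

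In the Wnt pathway 3 of 11 measured genes passed in at least 1 comparison, near the 26.0% of all genes: the ligand WNT10B fell, the secreted antagonist SFRP1 rose, and the receptor FZD4 fell with ATRA at 48 h. The count was 1 lower for each retinoid at 24 h, 1 higher and 2 lower for ATRA at 48 h, and 1 higher and 1 lower for 9-cis RA at 48 h.

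WNT10B encodes a ligand that activates beta-catenin signalling and is known in hair follicle and bone. At 24 h it read 6.87, 6.99 and 6.82 with ATRA and 6.70 and 6.90 with 9-cis RA, against 7.69 and 7.73 with EtOH. At 48 h the levels were 6.16, 6.58 and 5.85 with ATRA and 6.45 and 6.23 with 9-cis RA, against 8.01 and 7.38 with EtOH. Retinoid and EtOH samples did not overlap at either time. The 24 h differences were -0.82 ± 0.21 for ATRA (adjusted p = 0.0411) and -0.91 ± 0.23 for 9-cis RA (adjusted p = 0.0222). At 48 h WNT10B differed by -1.49 ± 0.21 for ATRA (adjusted p = 0.000447) and by -1.36 ± 0.23 for 9-cis RA (adjusted p = 0.00231), a level 2.82-fold lower with ATRA and 2.56-fold lower with 9-cis RA. It was detected on 2 of 4 ATRA, 2 of 3 9-cis RA and 3 of 3 EtOH arrays at 48 h. The 48 h calls held without any 1 sample (adjusted p of at most 0.01 for ATRA and 0.0306 for 9-cis RA). The ATRA call at 24 h held in only 4 of 14 such fits (adjusted p of 0.0164 to 0.254). It was lost without either 24 h EtOH sample, any 24 h ATRA sample, any 9-cis RA sample of either time, or ATRA replicate 1-2 at 48 h. The 9-cis RA call at 24 h held in 10 of 14 and was lost without either EtOH (0.0989 and 0.132) or either 9-cis RA sample (0.163 and 0.0715) of that time. From the authors' deposited normalized values the WNT10B differences were -0.37, -0.60, -0.41 and -0.57 for ATRA at 24 and 48 h and 9-cis RA at 24 and 48 h, all still passing. With a term for the samples that stood apart on the second component the 24 h values were -0.71 for ATRA (adjusted p = 0.0536) and -0.59 for 9-cis RA (adjusted p = 0.248).

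SFRP1, a secreted frizzled-related protein that binds Wnt ligands, rose at 48 h. Its levels were 12.26, 11.95 and 11.98 with ATRA and 12.25 and 12.05 with 9-cis RA, against 11.23 and 11.25 with EtOH. All 5 retinoid samples lay above both EtOH samples, which were nearly equal. SFRP1 differed by 0.82 ± 0.15 for ATRA (adjusted p = 0.00296) and 0.91 ± 0.17 for 9-cis RA (adjusted p = 0.0036). At 24 h it read 11.98, 11.99 and 11.63 with ATRA and 11.80 and 11.80 with 9-cis RA, against 11.30 and 11.44 with EtOH, and the differences of 0.50 (adjusted p = 0.0781) and 0.43 (adjusted p = 0.0984) did not pass. With equal array medians the 48 h differences were 0.55 (adjusted p = 0.106) and 0.75 (adjusted p = 0.0707), and without 9-cis RA replicate 1 at 48 h the 9-cis RA value was 0.81 (adjusted p = 0.0527).

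FZD4, a frizzled receptor that also answers to norrin, is dim here and was detected on 7 of 20 arrays. At 48 h it read 5.16, 4.92 and 5.26 with ATRA and 5.42 and 5.26 with 9-cis RA, against 5.73 and 5.58 with EtOH. The probe was not detected on any of the 7 retinoid arrays at 48 h and was detected on 2 of 3 EtOH arrays. The ATRA difference of -0.54 ± 0.15 passed (adjusted p = 0.0283), but no bound above 1-fold could be given, because EtOH lay near the detection limit too. At 24 h FZD4 read 5.33, 5.42 and 5.09 with ATRA and 5.58 and 5.36 with 9-cis RA, against 5.67 and 5.69 with EtOH, and neither difference passed. The 48 h call was lost without background correction (-0.17, adjusted p = 0.148), with array set as a term (-0.46, adjusted p = 0.0538), without EtOH replicate 1 at 48 h (-0.46, adjusted p = 0.161) and without ATRA replicate 3 at 48 h (-0.44, adjusted p = 0.0879). It was also lost with equal array medians (-0.48, adjusted p = 0.0632) and from the authors' deposited normalized values (-0.11, adjusted p = 0.179).

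The other 6 measured frizzled receptors did not pass in any comparison. FZD2 came nearest, with 7.66, 7.78 and 7.57 with ATRA at 48 h, against 7.31 and 7.20 with EtOH (difference 0.42, adjusted p = 0.0503). FZD1 at 48 h differed by 0.48 with ATRA (adjusted p = 0.0695) and by 0.47 with 9-cis RA (adjusted p = 0.138). FZD6 ranged from 7.40 to 8.72 over the 14 samples, and its highest ATRA value at each time was replicate 4, at 8.51 and 8.72. FZD3, FZD7 and FZD9 had differences of 0.09 to 0.21, 0.06 to 0.51 and -0.42 to 0.48. A second FZD7 probe, detected on all arrays, gave -0.25 for ATRA and -0.43 for 9-cis RA at 24 h, and 0.03 and 0.22 at 48 h. Of the canonical targets, AXIN2, a feedback inhibitor of beta-catenin, had differences of 0.21 to 0.60 (lowest adjusted p = 0.109) and was detected on 9 arrays. LEF1, the transcription factor partner of beta-catenin, had differences between -0.08 and 0.01 (lowest adjusted p = 0.729).

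Among 6 measured FGF genes, the ligand FGF9 and the receptors FGFR3 and FGFR4 passed in at least 1 comparison, against 26.0% of all genes, and each was lower. With either retinoid at 24 h 1 passed, and at 48 h 2 passed with ATRA and 3 with 9-cis RA. The gene at 24 h was FGF9, which met the detection filter only through its EtOH arrays.

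FGF9 encodes a ligand known for signalling between epithelium and mesenchyme. It read 5.03, 5.62 and 4.98 with ATRA and 5.43 and 4.89 with 9-cis RA at 24 h, against 7.31 and 7.28 with EtOH. At 48 h the levels were 4.93, 4.73 and 5.36 with ATRA and 4.98 and 4.76 with 9-cis RA, against 7.57 and 7.45 with EtOH. The EtOH samples nearly agreed at each time, and every retinoid sample lay more than 1 log2 unit below them. FGF9 was detected on 1 of 4 ATRA and 1 of 3 9-cis RA arrays at 24 h, on 0 of 4 and 0 of 3 at 48 h, and on all EtOH arrays. Unnormalized FGF9 intensities were 119.4 to 147.3 with ATRA and 123.7 to 130.5 with 9-cis RA, against 237.3 to 356.2 with EtOH. The 24 h differences were -2.08 ± 0.23 for ATRA (adjusted p = 8.81e-05) and -2.13 ± 0.25 for 9-cis RA (adjusted p = 0.000154). Most retinoid arrays did not detect FGF9 at 24 h, so these sizes rest largely on signal near background. With no array set below its lowest detected signal, the 24 h means were 5.95 with ATRA and 5.58 with 9-cis RA. The EtOH mean was 7.30, so the drop that can be read at 24 h is smaller than the fitted one. At 48 h FGF9 was not well above background with either isomer and was at least 3.36-fold lower with ATRA (adjusted p = 1.11e-05 for the fitted difference) and at least 3.56-fold lower with 9-cis RA (adjusted p = 1.76e-05). These bounds set each undetected array at the lowest signal detected on it, or at the probe's own signal where that was higher. Values from the authors' deposited normalized table gave smaller FGF9 differences of -0.64 for ATRA and -0.65 for 9-cis RA at 24 h, both still passing. Within set 1 the 24 h differences were -2.00 and -2.30, and within set 2 FGF9 was detected on no retinoid array.

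FGFR4, a receptor tyrosine kinase for FGF ligands, fell at 48 h. It read 7.30, 7.37 and 6.81 with ATRA and 7.58 and 7.37 with 9-cis RA, against 8.34 and 8.11 with EtOH. All retinoid samples were below both EtOH samples, and ATRA replicate 4 was the lowest. The differences were -1.06 ± 0.20 for ATRA (adjusted p = 0.00328) and -0.75 ± 0.22 for 9-cis RA (adjusted p = 0.0449). At 24 h FGFR4 read 7.71, 7.93 and 7.33 with ATRA and 7.60 and 7.52 with 9-cis RA, against 8.10 and 8.24 with EtOH, and the differences of -0.52 and -0.61 did not pass (adjusted p = 0.161 and 0.078). A second probe gave -0.92 for ATRA (adjusted p = 0.0259) and -0.76 for 9-cis RA (adjusted p = 0.105) at 48 h. The FGFR4 call with 9-cis RA held in 5 of 14 fits without 1 sample (adjusted p of 0.0227 to 0.226). It was lost without any 24 h EtOH or 9-cis RA sample, either 9-cis RA sample or EtOH replicate 1 at 48 h, or ATRA replicate 1-2 of either time. It was also lost with equal array medians (adjusted p = 0.102) and with the mean of both probes (adjusted p = 0.0605). From the authors' deposited normalized values the 48 h FGFR4 differences were -0.56 and -0.42, both still passing.

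FGFR3, the receptor known for its mutations in skeletal dysplasia, read 9.02, 9.38 and 9.26 with ATRA and 8.89 and 8.65 with 9-cis RA at 48 h, against 9.53 and 9.46 with EtOH. The 9-cis RA pair was the lowest and did not overlap the ATRA samples. Its difference of -0.72 ± 0.16 passed (adjusted p = 0.0123), and the ATRA difference of -0.27 did not (adjusted p = 0.23). FGFR3 at 24 h read 8.86, 8.91 and 9.15 with ATRA and 8.97 and 8.83 with 9-cis RA, against 9.41 and 9.37 with EtOH, and neither difference passed (adjusted p = 0.128 and 0.0616). A dimmer second FGFR3 probe, detected on 11 arrays, gave 0.14 for 9-cis RA at 48 h (adjusted p = 0.865), so the 2 probes disagree in sign. Fitted on the mean of both probes the FGFR3 difference was -0.29 (adjusted p = 0.449). Without EtOH replicate 1 at 48 h it was -0.69 (adjusted p = 0.0586), and without 9-cis RA replicate 2-3 at 48 h it was -0.60 (adjusted p = 0.115).

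The remaining FGF genes were dim. FGF13, an intracellular relative of the FGFs, was detected on 3 arrays, and the ligands FGF18 and FGF23 on 11 each. Their differences lay between -0.23 and 0.30, and none passed (lowest adjusted p = 0.226, for FGF13).

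The BMP and TGF-beta pathway had 3 of 14 measured genes that passed in at least 1 comparison, no larger a share than the 26.0% of all genes: SMAD4 and TGFBR2 rose and BMP1 fell. None passed with ATRA at 24 h or 9-cis RA at 48 h, against 5.75% and 11.0% of all genes.

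SMAD4 is the common partner of the receptor-activated SMADs. It read 9.39, 9.89 and 10.15 with ATRA at 48 h and 9.56 and 9.27 with 9-cis RA, against 8.84 and 9.33 with EtOH. The ATRA samples lay above both EtOH samples, and one 9-cis RA sample lay below the higher EtOH sample. At 24 h SMAD4 read 9.33, 9.54 and 9.57 with ATRA and 9.90 and 9.83 with 9-cis RA, against 9.06 and 8.87 with EtOH. The difference passed for ATRA at 48 h (0.73 ± 0.21, adjusted p = 0.0321) and for 9-cis RA at 24 h (0.90 ± 0.23, adjusted p = 0.0222). The ATRA call was lost without EtOH replicate 1 (0.48, adjusted p = 0.294), ATRA replicate 3 (0.69, adjusted p = 0.0816) or ATRA replicate 4 (0.56, adjusted p = 0.1) at 48 h, within array set 1 (0.60, adjusted p = 0.0696) or set 2 (0.36, adjusted p = 0.683) and with equal array medians (0.59, adjusted p = 0.0811). The 9-cis RA call was lost without either EtOH sample (adjusted p = 0.0769 and 0.16) or either 9-cis RA sample (adjusted p = 0.142 and 0.0891) of 24 h, and with a term for the samples that stood apart (0.59, adjusted p = 0.252).

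TGFBR2, the receptor kinase that binds TGF-beta first, read 8.81, 9.39 and 9.35 with ATRA and 9.09 and 8.77 with 9-cis RA at 48 h, against 8.41 and 8.60 with EtOH. Retinoid samples were all above EtOH samples. The ATRA difference was 0.68 ± 0.20 (adjusted p = 0.035), and a second TGFBR2 probe gave 0.49 (adjusted p = 0.0441). At 24 h TGFBR2 read 8.85, 9.04 and 9.38 with ATRA and 9.40 and 9.21 with 9-cis RA, against 8.62 and 8.71 with EtOH, with differences of 0.42 and 0.64 that did not pass (adjusted p = 0.257 and 0.0692). Its call was lost without EtOH replicate 1 at 48 h (0.58, adjusted p = 0.213), ATRA replicate 3 or 4 at 48 h (adjusted p = 0.105 and 0.0996) or either EtOH sample of 24 h (adjusted p = 0.0515), within array set 1 (0.56, adjusted p = 0.091) and with equal array medians (0.55, adjusted p = 0.0534).

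BMP1 is a secreted protease that cuts procollagens and is no BMP ligand despite its name. With 9-cis RA at 24 h it read 7.30 and 7.33, against 8.05 and 8.05 with EtOH, a difference of -0.73 ± 0.23 (adjusted p = 0.0496). ATRA samples at 24 h read 7.81, 7.86 and 7.20, and the lowest of them was replicate 4, which stood apart with the 9-cis RA samples on the second component. At 48 h BMP1 read 7.93, 8.00 and 7.40 with ATRA and 8.02 and 7.82 with 9-cis RA, against 8.09 and 8.05 with EtOH. In both ATRA groups replicate 4 was the low sample. The BMP1 call held in 4 of 14 fits without 1 sample (adjusted p of 0.0188 to 0.211). It was lost without any 24 h EtOH or 9-cis RA sample, ATRA replicate 1-2 or 3 of either time, or either 9-cis RA sample of 48 h. With a term for the samples that stood apart the BMP1 difference was -0.14 (adjusted p = 0.679), and with equal array medians it was -0.77 (adjusted p = 0.0975). From the authors' deposited normalized values it was -0.39 and still passed.

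The 11 other BMP and TGF-beta genes did not pass. The ID genes encode inhibitors of helix-loop-helix factors and are known targets of BMP signalling. ID3 read 12.12, 12.13 and 12.08 with ATRA and 11.96 and 12.00 with 9-cis RA at 48 h, against 11.91 and 11.32 with EtOH, and its ATRA difference of 0.50 just missed the threshold (adjusted p = 0.0515). ID4 at 48 h read 7.28, 7.68 and 7.81 with ATRA and 6.91 and 7.10 with 9-cis RA, against 6.50 and 7.13 with EtOH, with an ATRA difference of 0.77 (adjusted p = 0.0526). ID1 had differences of -0.37 to -0.10 (lowest adjusted p = 0.184). A dimmer second ID1 probe, detected on 8 arrays, gave -0.80 with 9-cis RA at 24 h, which passed (adjusted p = 0.0381). Among the inhibitory SMADs, SMAD7 had differences of -0.69 to -0.51 in the 4 comparisons (lowest adjusted p = 0.103; -0.38 to 0.02 for a second probe) and SMAD6 of -0.12 to 0.72 (lowest adjusted p = 0.0699). The receptor-activated SMAD2, SMAD3 and SMAD5 had differences between -0.13 and 0.24, and SMAD9 between -0.41 and 0.67. The ligand TGFB3 was detected on 3 arrays, and the coreceptor TGFBR3 ranged from 7.46 to 8.17.

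**Figure D3:**
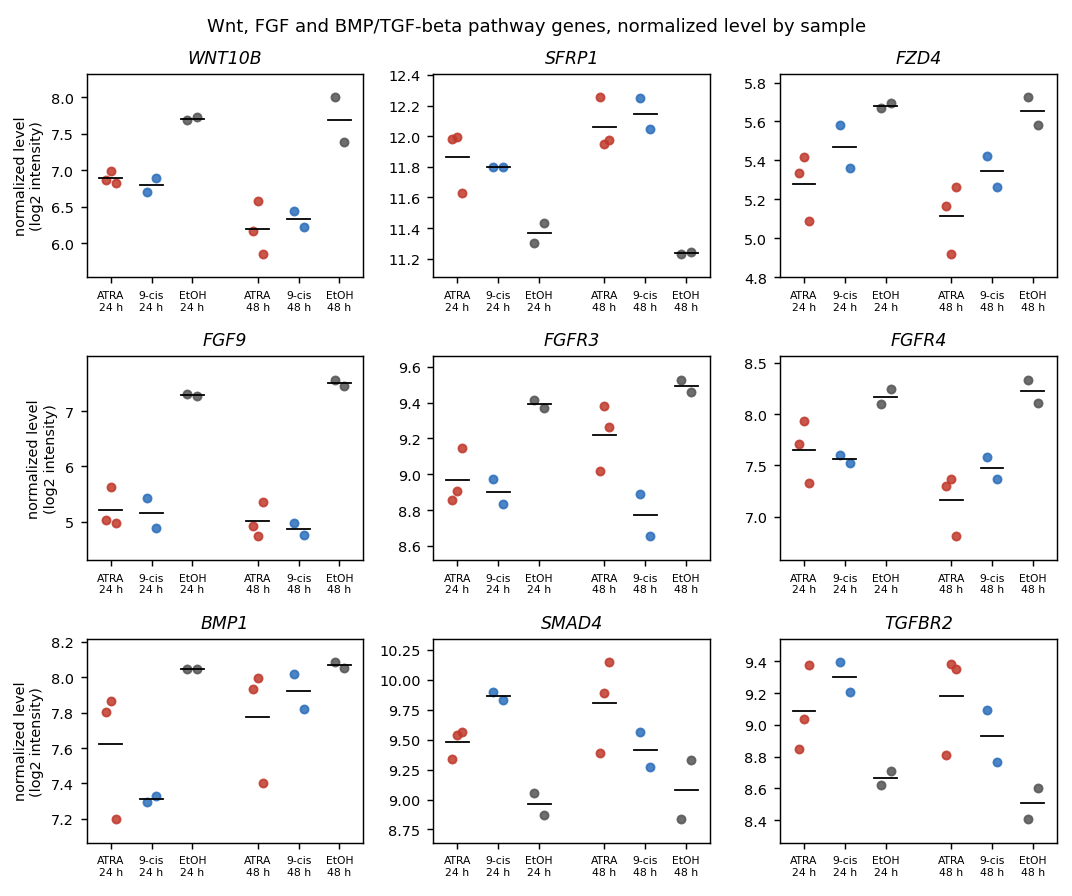
Normalized log2 intensity (vertical axes) of the 9 Wnt, FGF and BMP/TGF-beta genes that passed, in each ATRA, 9-cis RA and EtOH sample at 24 and 48 h; points are samples and lines are group means. FGF9 and WNT10B sit below all EtOH samples at both times and SFRP1 above them, while replicate 4 is the lowest ATRA sample of BMP1 and FGFR4 at both times.

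Of the 5 genes that match only by letters none passed. FGFR1OP2, named for a fusion with FGFR1, and TGFB1I1, a focal adhesion protein, came nearest, both with ATRA at 48 h, at 0.58 (adjusted p = 0.0772) and 0.43 (adjusted p = 0.0668). The kinase BMP2K, the divergent transcript FZD4-DT and NOTCH2NLA, a partial copy of NOTCH2, had lowest adjusted p-values of 0.378, 0.754 and 0.35. Signals of the NOTCH2 and NOTCH2NLA probes may not be separable, as the genes are near-identical copies over part of their length.

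ATRA and 9-cis RA were compared directly at the same dose and times. With limma 0 of the 49 genes passed at 24 h (3 at an unadjusted p under 0.05), against 0.0656% of all genes (10.4% unadjusted). At 48 h 0 passed (4 unadjusted), against 0.0375% of all genes (5.31% unadjusted). The differences below are ATRA minus 9-cis RA with 95% intervals. HES1 at 48 h differed by -0.55 (-0.93 to -0.17, adjusted p = 0.877), HEY2 by -0.39 (-0.74 to -0.04, adjusted p = 0.877), ID4 by 0.58 (0.03 to 1.13, adjusted p = 0.877) and FGFR3 by 0.45 (0.13 to 0.77, adjusted p = 0.877). FZD9 and NOTCH2 at 24 h differed by -0.62 (-1.02 to -0.23) and -0.57 (-0.99 to -0.15), with adjusted p-values of 0.362 and 0.383, and both 9-cis RA samples behind these values stood apart on the second component. JAG1, the third, was detected on no ATRA array at 24 h, so its size is not given. FGF9 was detected on at most 1 array of either isomer at 24 h and on 0 at 48 h, so it gives no comparison of the isomers. For LFNG the interval was -0.21 to 0.67 at 24 h and -0.71 to 0.17 at 48 h, and for WNT10B -0.37 to 0.55 and -0.60 to 0.32. A p that misses the threshold does not show that the isomers act alike, and the intervals of LFNG and WNT10B allow differences up to their ends.

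**Figure D4:**
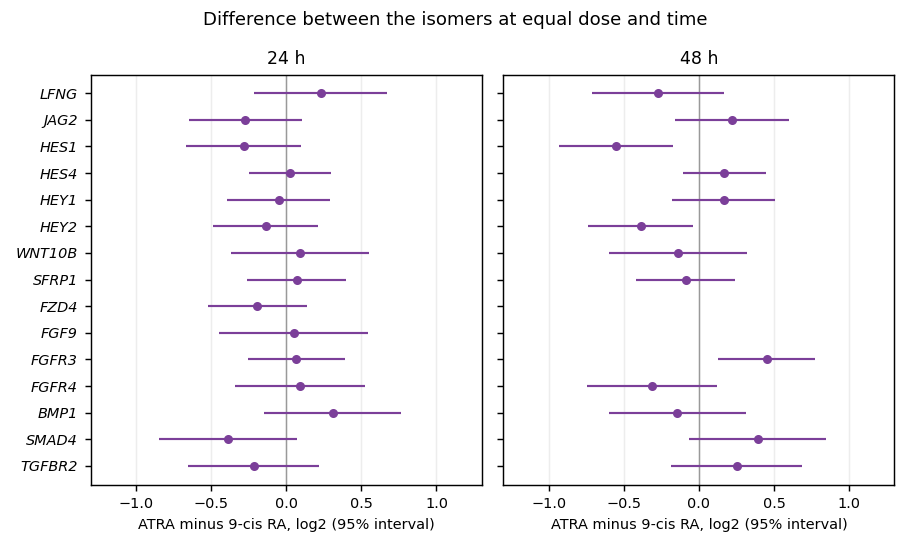
Difference between ATRA and 9-cis RA (ATRA minus 9-cis RA, log2, horizontal axes) at 24 h (left) and 48 h (right) for the 15 genes that passed against EtOH, leaving out FGF9 and FZD4 at 48 h, which were detected on no array of either isomer; points are fitted differences and bars 95% intervals. None passed after adjustment, and the intervals of HES1, HEY2 and FGFR3 at 48 h leave out 0 before adjustment.

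Time was examined in EtOH culture and in the size of each retinoid difference. In EtOH at 48 against 24 h 0 of 49 genes passed with limma (5 at an unadjusted p under 0.05), against 0.0281% of all genes (5.92% unadjusted). The 5 were HEY1 (0.48, adjusted p = 0.711), HEY2 (-0.43, adjusted p = 0.815), HES1 (0.51, adjusted p = 0.772), DLL3 (0.49, adjusted p = 0.815) and SMAD9 (0.75, adjusted p = 0.827). The ATRA difference changed between the times for 0 genes (4 unadjusted), against 0.0375% of all genes (4.68% unadjusted). The 9-cis RA difference changed for 0 genes (6 unadjusted), against 0.00937% of all genes (13.4% unadjusted). HEY2 had the lowest p among the 49 in both, with a change of 0.73 ± 0.23 for ATRA (adjusted p = 0.987) and 0.98 ± 0.25 for 9-cis RA (adjusted p = 0.211). Both 9-cis RA samples of 24 h stood apart on the second component and neither of 48 h did. A change of the 9-cis RA difference with time cannot be told apart from that split. The LFNG difference with ATRA changed by -0.78 ± 0.29 (adjusted p = 1). A difference that passed at 48 h and not at 24 h, as for HEY1, SFRP1 and the first JAG2 probe, was thus not shown to change with time. The second JAG2 probe passed at both times with both isomers.

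Other genes of the pathways, from lists of receptors, transducers and regulators outside the symbols above, were counted in the same fit, with the same percentages of all genes as background. Of 25 Wnt genes 0 were higher and 1 lower with ATRA at 24 h, 2 and 1 with ATRA at 48 h, 3 and 2 with 9-cis RA at 24 h, and 1 and 2 with 9-cis RA at 48 h. Beside these, 5.75%, 17.4%, 14.5% and 11.0% of all genes passed in either direction, in the same order. The genes named from each list had the lowest p in it, so they do not stand for their list. TNFRSF19, a receptor known as a Wnt target, was lower with ATRA at 24 h (-1.14 ± 0.17, adjusted p = 0.00126) and 48 h (-0.79 ± 0.17, adjusted p = 0.00758) and with 9-cis RA at 48 h (-0.73 ± 0.19, adjusted p = 0.0231). GSK3B, the kinase that marks beta-catenin for destruction, was higher with 9-cis RA at 24 h (0.68 ± 0.13, adjusted p = 0.00581). The corepressor TLE1 was lower with 9-cis RA at 24 h (-0.79, adjusted p = 0.0264) and 48 h (-0.73, adjusted p = 0.0404), and the beta-catenin cofactor BCL9L with 9-cis RA at 24 h (-0.92, adjusted p = 0.0178).

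Of 23 BMP and TGF-beta genes 3 were higher and 0 lower with ATRA at 24 h, 3 and 2 at 48 h, 5 and 1 with 9-cis RA at 24 h, and 4 and 0 at 48 h. The shares of all genes were 5.75%, 17.4%, 14.5% and 11.0% in either direction. GDF15, a stress-induced distant relative of TGF-beta, rose with ATRA by 2.17 ± 0.15 at 24 h (adjusted p = 1.7e-06) and 1.45 ± 0.15 at 48 h (adjusted p = 3.67e-05) and with 9-cis RA by 2.61 ± 0.17 and 2.11 ± 0.17 (adjusted p = 5.65e-07 and 3.3e-06). NBL1, a secreted BMP antagonist, rose by 1.28 to 1.34 with ATRA and 1.23 to 1.47 with 9-cis RA (adjusted p of 0.000159 or less). BAMBI, a decoy receptor, rose at 48 h by 0.86 with ATRA (adjusted p = 0.00145) and 0.96 with 9-cis RA (adjusted p = 0.00159). It also rose with 9-cis RA at 24 h, by 0.61 (adjusted p = 0.0235). BMPR1B, a BMP receptor kinase, was lower with ATRA at 48 h (-0.59, adjusted p = 0.0164).

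Of 22 FGF genes 2 were higher and 0 lower with ATRA at 24 h, 4 and 1 at 48 h, 4 and 0 with 9-cis RA at 24 h, and 1 and 1 at 48 h. Again 5.75%, 17.4%, 14.5% and 11.0% of all genes passed, and the count with 9-cis RA at 48 h lay near that level. SPRY1, a feedback inhibitor of FGF receptor signalling, rose at 48 h by 1.25 ± 0.18 with ATRA (adjusted p = 0.000457) and 1.95 ± 0.20 with 9-cis RA (adjusted p = 2.65e-05). It also rose with 9-cis RA at 24 h, by 1.02 (adjusted p = 0.00526). The ETS factor ETV5 rose with ATRA at 24 h by 0.68 (adjusted p = 0.0328) and at 48 h by 0.89 (adjusted p = 0.00338), and with 9-cis RA at 24 h by 0.77 (adjusted p = 0.0163). SPRED1, an inhibitor of RAS signalling, rose with ATRA by 0.52 at 24 h (adjusted p = 0.0428) and 0.47 at 48 h (adjusted p = 0.0323). With 9-cis RA SPRED1 rose at 24 h by 0.73 (adjusted p = 0.00795). HRAS was lower at 48 h with ATRA (-0.54, adjusted p = 0.031) and 9-cis RA (-0.75, adjusted p = 0.0126).

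Of 22 Notch genes 2 were higher and 0 lower with ATRA at 24 h, 3 and 0 at 48 h, 2 and 1 with 9-cis RA at 24 h, and 1 and 1 at 48 h. Against 5.75%, 17.4%, 14.5% and 11.0% of all genes, the Notch counts with 9-cis RA lay near the level of all genes at both times. NCSTN, nicastrin of the gamma-secretase complex that cuts NOTCH receptors, rose in all 4 comparisons, by 0.70 ± 0.15 and 0.92 ± 0.15 with ATRA at 24 and 48 h (adjusted p = 0.0156 and 0.00142) and by 0.98 ± 0.17 and 0.83 ± 0.17 with 9-cis RA (adjusted p = 0.00247 and 0.00595). ADAM10, the protease that makes the first cut, rose with ATRA by 1.71 ± 0.41 at 24 h (adjusted p = 0.0297) and 1.53 ± 0.41 at 48 h (adjusted p = 0.0233) and with 9-cis RA at 24 h by 1.54 ± 0.46 (adjusted p = 0.0406). RBPJ, the DNA-binding partner of cut NOTCH, was lower with 9-cis RA at 24 h (-1.33 ± 0.33, adjusted p = 0.0193) and differed by 0.51 at 48 h (adjusted p = 0.372). NUMB, an inhibitor of Notch, rose with ATRA at 48 h by 0.53 (adjusted p = 0.0217).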

How the data were processed

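The authors deposited a table of non-normalized intensity values, with a detection p-value beside each, for 47323 probes on 20 Illumina BeadChips, and a matrix of log2 values made with lumi per the submitters' processing notes (version and settings not given in the sources used here). Detection p-values moved in steps of 1 in 770.

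The neqc function of limma (limma 3.58.1, R 4.3.3, offset 16) corrected the background, using negative controls it infers from detection p-values, then applied quantile normalization and the log2 transform. The 18269 probes detected (p under 0.01) on 3 or more arrays were kept, and each of 10673 genes is represented by its brightest probe on average. Gene names came from the platform annotation of the deposited matrix: 14194 kept probes had 1 gene and 4075 had no single gene. Symbols were matched to RefSeq by Entrez ID, which changed 0 of them.

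Arrays sharing a sample number were averaged, which left 14 samples. A model with 6 group means was fitted over all genes with limma's empirical Bayes (8 residual and 5.09 prior degrees of freedom), p-values were adjusted by Benjamini-Hochberg over all 10673 genes and passed under 0.05. The pipeline was tested on simulated data. Members were found by the symbol rule; a member is described with every sample where it passed in a comparison of a retinoid with EtOH, and otherwise by its range. Up to 4 genes of each other pathway list are named, those with the lowest p among those that passed. The members, the lists and the tests were chosen with earlier results of these data known. For a probe detected on no array of a group the fold is a bound, computed from the lowest signals detected on each array. Promoters are RefSeq windows of GRCh38.p14, found for 37 of the 49 genes, and motifs were searched on both strands with Python 3.11.15. Figures were drawn with matplotlib 3.10.9.

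Alternatives tried were no background correction, equal array medians, the authors' log2 values, other detection filters, arrays taken singly, the array set, fewer groups, the mean of all probes, leaving out each sample, and, added after the data were seen, the 4 samples apart on the second component left out or as a term, and other probes singly. The dim probes had larger differences with background correction than without it.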

Additional observations from a re-analysis of the deposited data

How the results depend on the processing

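Against 5, 12, 7 and 10 genes passing with ATRA at 24 and 48 h and 9-cis RA at 24 and 48 h, other settings that moved a count by over 1.5 times are given here, with the range without each sample. For ATRA at 24 h 12 passed with 20 arrays taken as independent, 3 within array set 2 and 3 without the 4 samples that stood apart, and 3 to 7 without 1 sample. For ATRA at 48 h 7 passed with equal array medians, 4 within set 2 and 6 with only the groups compared, and 8 to 16 without 1 sample. For 9-cis RA at 24 h 16 passed with independent arrays, 13 with array set as a term, 13 within set 1, 2 within set 2, 20 with only the groups compared and 4 with the samples apart as a term, and 3 to 12 without 1 sample. For 9-cis RA at 48 h 3 passed within set 2 and 4 with only the groups compared, and 7 to 12 without 1 sample. Between the isomers at 24 h 1 passed with independent arrays and 2 within set 1, and 3 changes of the 9-cis RA difference passed with independent arrays; without 1 sample each of the other 5 counts was 0 throughout. Of these settings, the share of all genes that passed is given above only for the fits by array set. The other counts show how far the number of calls moves with the setting and are no result about the pathway genes. The cause of these shifts was not tested. Within set 2, EtOH and 9-cis RA are single arrays. Of 34 calls, 34 kept their sign in every alternative fit on the same probes or their mean, 19 held without any 1 sample and 10 held in all of these fits. Second probes taken alone reversed 1 call, FGFR3 with 9-cis RA at 48 h (0.14). Every scaling moved the median of all genes by less than 0.1. No paired analysis was possible because the labels give no replicate number that ties a treated sample to a control.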
